A study of Homo sapiens with 8 samples.

Results

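Golgi glycosyltransferases are the enzymes that build the sugar chains of glycoproteins and glycolipids, and their genes were followed here in SKBR3 cells with and without knockdown of the transcription factor FOXA1. The members were chosen by gene symbol: the GALNT, ST3GAL, ST6GAL, ST6GALNAC, ST8SIA, FUT, B3GNT, B4GALT, B3GALT, B4GALNT, MGAT and GCNT families, with C1GALT1 and C1GALT1C1. The deposited table of 30434 genes held 86 entries that met this rule, with 85 symbols. ST6GALNAC6 stood under 2 identifiers. The rule uses names and no measured value, but the members were chosen with earlier results of these data known.

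Each glycosyltransferase moves a sugar from a nucleotide sugar donor onto one kind of acceptor, so a finished chain records which enzymes a protein or lipid met on its way through the Golgi. O-glycans of mucin type start with a GalNAc on serine or threonine, N-glycans are trimmed and then branched, and both kinds of chain are extended with lactosamine and capped with sialic acid or fucose. In breast epithelium and its cancers, short or sialylated O-glycans on mucins, branched N-glycans and Lewis-type fucosylated structures are classical cell surface antigens.

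SKBR3 is an established human breast cancer line with amplified ERBB2, and the labels describe the control cells only as wild type. The FOXA1 knockdown cells were a stable SKBR3 derivative transduced with lentiviruses that carried 3 short hairpin RNAs against FOXA1. Both groups grew in the same serum-containing medium, and 4 control and 4 knockdown libraries were made from messenger RNA. The labels do not say whether the controls received a control vector, nor whether the 4 libraries of a group came from separate cultures, so p-values measure only the spread between these libraries, which may be technical. Transduction, selection and loss of FOXA1 cannot be told apart in this design, and 1 stable derivative was compared.

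Library totals ran from 19087878 to 23786684 counts. FOXA1 itself was at 189.5 to 193.3 CPM (counts scaled to 1000000 per library after TMM scaling) in the controls and at 3.56 to 4.26 CPM in the knockdown libraries, which left 2.06% of the control level. Spearman's rho across tested genes was at least 0.995 within a group and at most 0.8783 between groups, and control replicate 3 lay apart from the other controls on the second principal component (-40.1 against 9.5 to 16.3, for 1.82% of the variance). Of the 6 defining SKBR3 markers all were detected, with summed levels of 16500 to 18400 CPM in control and 11000 to 11900 CPM in knockdown libraries. ERBB2 (log2 fold change -2.45, from 7310 to 1340 CPM), KRT19 (-1.87) and GRB7 (-1.54) fell, and KRT18 (0.58), EPCAM (0.33) and KRT8 (0.31) rose. Of the 4 markers that should be low or absent, CDH1, VIM and PGR had at most 13 counts in any library, and ESR1 had 28 to 35 counts in the controls and 0 to 2 after knockdown. The fibroblast list (6 of 7 genes in the table) summed to 6.0 to 7.55 CPM in control and 11.3 to 12.7 CPM after knockdown. In that list COL3A1 rose from at most 1 count to 90 to 104 counts, and PDGFRB from 7 to 12 counts to 43 to 81 counts. COL1A1 fell by 0.31 on the log2 scale, THY1 did not pass the test, and COL1A2 and DCN had at most 3 counts. The endothelial list (3 of 3 genes) summed to 20.7 to 22.1 and 19.7 to 22.4 CPM with PECAM1 at 6 counts or fewer, while VWF fell by 2.62 and CDH5 rose by 0.32 on the log2 scale. The leukocyte list (3 of 4) summed to 4.63 to 5.82 and 0.648 to 1.62 CPM, with PTPRC at 3 counts or fewer. CD68 fell from 93 to 131 counts to 3 to 26 counts, and CD14 rose by 1.51 on the log2 scale. The part of these markers in the results on the glycosyltransferases was not tested. Bulk libraries cannot tell fewer cells of a type from less RNA per cell.

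Of the 86 glycosyltransferase entries, 67 passed the low-count filter, and these were tested together with all other genes (edgeR quasi-likelihood test, Benjamini-Hochberg adjustment over 16430 genes, threshold 0.05). After knockdown 32 rose and 27 fell, and 8 did not pass the test. Both identifiers of ST6GALNAC6 count among those that fell. Called genes were 88.1% of the tested members, beside 77.1% of all genes tested. In the upward direction the shares were 47.8% of members and 39.4% of all genes, and in the downward direction 40.3% and 37.7%. At least a 2-fold difference was seen for 36 members (53.7%, beside 28.3% of all genes), of which 17 were higher (25.4%, beside 14.9%) and 19 lower (28.4%, beside 13.4%). CPM values did not overlap between the groups for 58 members (86.6%, beside 72% of all genes). The median log2 fold change was 0.13 over the tested members and 0.019 over all genes.

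These counts are descriptions, and the counts by class below are to be read beside the 39.4% higher and 37.7% lower of all genes. Of the tested members, 7 had passed the filter through 1 group: MGAT3, GALNT13, GCNT4, B3GNT5 and ST6GALNAC5 through the knockdown libraries, and GALNT17 and ST8SIA1 through the controls. The other 19 entries had at most 12 counts in any library and were not tested. They were GALNT5, GALNT8, GALNT9, GALNT14, B3GNT6, GCNT3, MGAT4C, B3GALT2, B3GALT5, B3GNT8, GCNT7, ST8SIA5, ST6GALNAC1, ST6GALNAC2, ST6GALNAC3, ST6GAL2, ST8SIA4, FUT5 and FUT6. All members together took 0.2532 to 0.2558% of the counts in control and 0.2303 to 0.2393% in knockdown libraries.

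**Figure D1:**
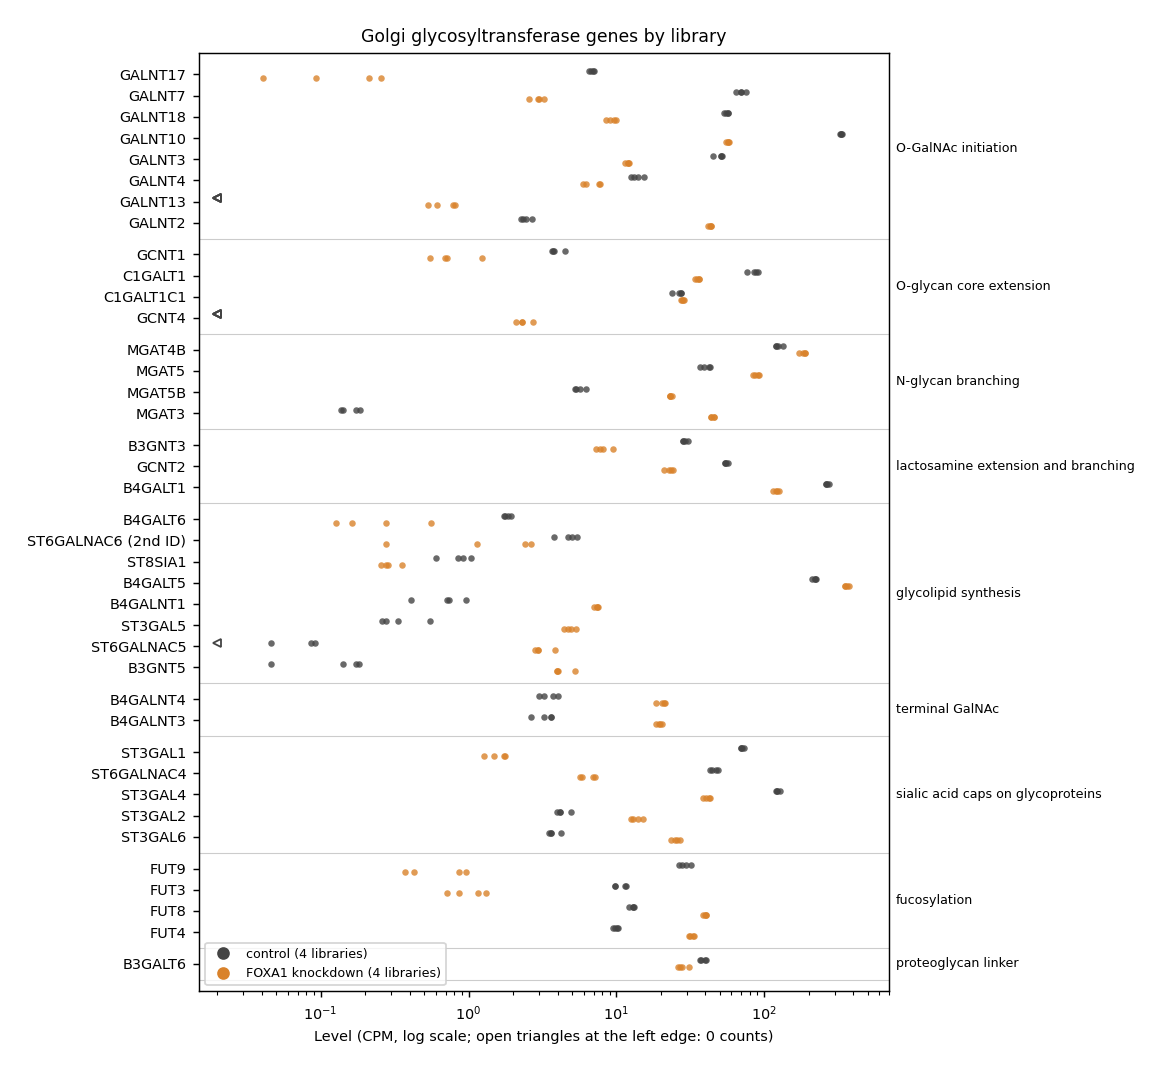
Level of each named member in every library, in CPM on a log axis, with 1 point per library (dark: 4 control, orange: 4 FOXA1 knockdown) and open triangles for 0 counts. Except for C1GALT1C1, the points of the groups do not overlap for any gene drawn, and MGAT3, GALNT7, ST3GAL1 and FUT9 are among those farthest apart.

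The GALNT enzymes put the first GalNAc on a protein and so decide where O-glycans start. Of 14 tested, 7 fell, 5 rose and 2 did not pass the test, and the summed level per length of all 18 went from 120 ± 1.08 to 72.4 ± 0.819 CPM per kb (SD, n = 4). GALNT10, an isoform that prefers peptides already carrying a GalNAc (chr5:154190730-154420984), was at 326.1, 330.8, 336.8 and 331.3 CPM in the control libraries and at 55.2, 57.1, 56.5 and 58.1 CPM in the knockdown libraries. Every knockdown library lay far below every control. The log2 fold change was -2.55 ± 0.0181 (SE; edgeR adjusted p = 3.68e-27), and the permutation test (exact, two-sided) gave 0.0286, the smallest value that the 70 divisions into 4 and 4 allow. GALNT10 shares part of its annotated span and strand with MFAP3, so reads of overlapping parts could be assigned to either.

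GALNT7, another isoform that follows earlier enzymes (chr4:173168753-173323967), fell from 75.1, 69.3, 64.5 and 69.3 CPM to 3.02, 2.58, 2.95 and 3.24 CPM. This was 23.6-fold lower, with no overlap between groups (log2 fold change -4.56 ± 0.0815, edgeR adjusted p = 8.92e-26). GALNT17, a member known mainly from brain, had 144 to 156 counts in the controls and 1 to 5 counts after knockdown. That is 45.5-fold lower, with a counting interval of 27.2 to 88.5 that covers counting error only. GALNT18 fell from 53.1 to 57.0 CPM in the controls to 8.51 to 9.91 CPM, and GALNT3, the isoform that protects the hormone FGF23 from cleavage, fell from 45.2 to 52.2 CPM to 11.5 to 12.1 CPM. GALNT4 fell from 12.6 to 15.4 CPM to 5.91 to 7.77 CPM, a log2 fold change of -1.01. Its gene lies wholly inside POC1B on the same strand, which limits the assignment of its reads.

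GALNT2, a broadly expressed isoform with many substrates (chr1:230057990-230282124), moved the other way. Its level was 2.34, 2.68, 2.28 and 2.46 CPM in the controls and 43.1, 43.5, 41.5 and 43.8 CPM after knockdown, 17.6-fold higher with no overlap (log2 fold change 4.14 ± 0.0537, edgeR adjusted p = 3.91e-25). GALNT13, a neuronal isoform, was undetected in all 4 controls, where 3 counts correspond to 0.129 to 0.142 CPM, and had 12 to 19 counts after knockdown. It was at least 4.80-fold higher, measured against 3 counts in the control library where these weigh most. GALNT6, a close relative of GALNT3 that is often high in breast cancer, rose less, from 184.4 ± 8.13 to 258.0 ± 8.33 CPM (SD, n = 4).

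The make-up of the initiation step therefore differed between groups, when levels were compared per length of exon sequence. GALNT10 held 26.3% ± 0.58 of the summed CPM per kb of the family in control libraries and 7.46% ± 0.108 after knockdown (SD, n = 4). GALNT6 held 21.0% ± 1.05 and then 48.5% ± 1.03, and so stood first in knockdown libraries, followed by GALNT1 with 18.5% and GALNT2 with 7.67%. GALNT1, a broadly expressed isoform, itself fell by 0.42 on the log2 scale. With the longest coding transcript as the length, GALNT10 again led in the controls and GALNT6 after knockdown, but GALNT11 came before GALNT2 after knockdown (11.1% and 8.77%). Of the members not named so far, GALNT11 and GALNT12 rose by 0.15 and 0.88 on the log2 scale. GALNT15 (log2 fold change -0.17, edgeR adjusted p = 0.705) and GALNT16 (-0.34, adjusted p = 0.185) did not pass the test. Without knockdown replicate 1 GALNT16 passed it (-0.57, adjusted p = 0.0383), and without knockdown replicate 4 GALNT11 no longer did (0.12, adjusted p = 0.0536).

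**Figure D2:**
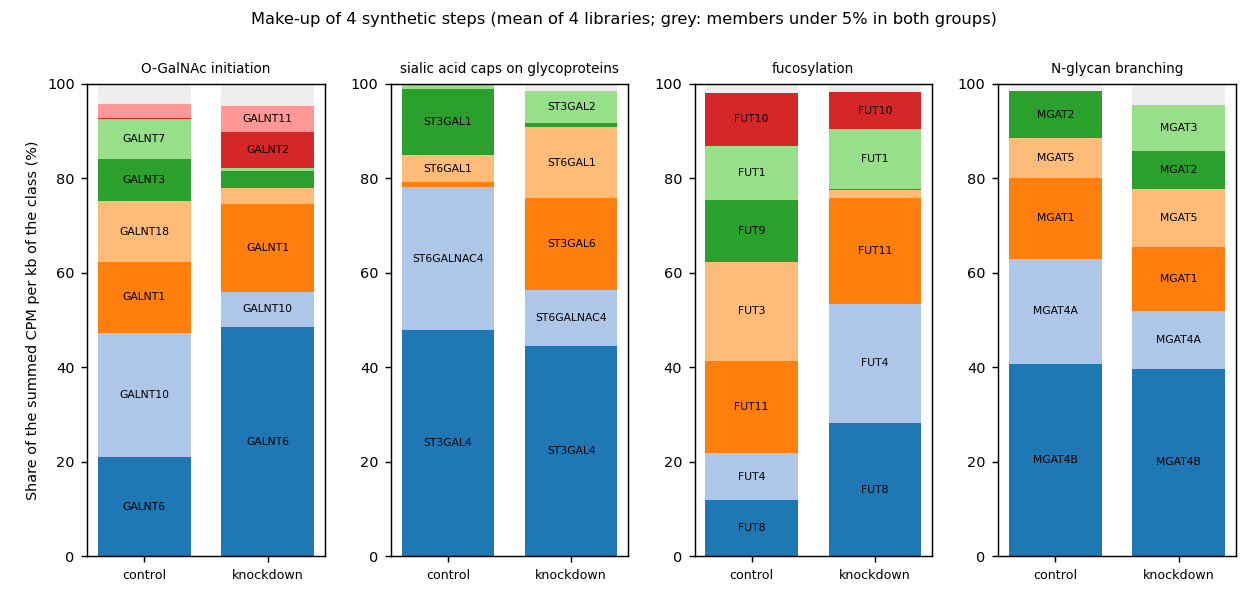
Make-up of 4 synthetic steps, as the share of the summed CPM per kb of the class in percent, with 1 stacked bar per group (mean of 4 libraries). GALNT6 grows from 21.0% to 48.5% of the GALNT bar, FUT8 and FUT4 widen while FUT3 and FUT9 shrink, and MGAT3 enters the N-glycan bar at 9.7%.

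The next step converts the first GalNAc into a core. C1GALT1, the core 1 synthase that adds galactose (chr7:7156934-7248651), was at 88.5, 84.6, 76.03 and 91.4 CPM in the controls and at 36.1, 36.4, 35.0 and 34.1 CPM after knockdown. The groups did not overlap, and the log2 fold change was -1.27 ± 0.0618 (edgeR adjusted p = 3.60e-17). With the median of its neighbours (-0.329) removed, the log2 fold change was -0.94, under 2-fold. C1GALT1C1, the chaperone that C1GALT1 needs to fold, was at 23.8 to 27.4 CPM and at 27.3 to 28.7 CPM, ranges that overlapped (log2 fold change 0.10, edgeR adjusted p = 0.109). It passed the test with upper-quartile scaling (0.16, adjusted p = 0.0101) and with scaling by library size alone (0.18, adjusted p = 0.0046), so its call hangs on the scaling.

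GCNT1, which adds the branch that makes core 2, fell from 80 to 99 counts in the control libraries to 13 to 30 counts, a log2 fold change of -2.27 ± 0.248. GCNT4, a second core 2 enzyme (chr5:75025346-75030899), went the opposite way, from 0 counts in each control to 45 to 59 counts. GCNT4 was at least 16.5-fold higher. Core 3 synthase B3GNT6 and the mucin-type branching enzyme GCNT3 had at most 6 counts in any library. Of 4 tested core genes, 2 fell and 1 rose.

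Of 7 tested N-glycan branching genes 6 rose, and MGAT4A fell. The summed level of the whole class went from 55.4 ± 1.28 to 83.9 ± 2.35 CPM per kb (SD, n = 4). MGAT3 adds the bisecting GlcNAc, a residue that blocks further branching (chr22:39457344-39492194). Its counts were 4, 3, 3 and 4 in the controls and 1022, 1109, 851 and 983 after knockdown, or 43.3 to 45.5 CPM. The ratio was 280.2, with a counting interval of 166.6 to 512.4 that covers counting error only, and no other tested member had a fitted log2 fold change as high among those above the floor of 3 counts (8.08 ± 0.0912, edgeR adjusted p = 6.35e-27).

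MGAT5, which starts the branch read as tumour-associated in many carcinomas (chr2:134119983-134454621), was at 39.3, 42.5, 43.1 and 37.0 CPM in the controls and at 86.8, 91.4, 84.2 and 91.8 CPM after knockdown. It rose by 1.13 ± 0.0593 on the log2 scale, with no overlap. MGAT5B, its relative known mainly from brain, rose from 5.27 to 6.27 CPM to 23.1 to 23.8 CPM, 4.15-fold higher. MGAT4B, which starts another antenna and had the highest level per length of the class, rose from 119 to 133 CPM to 171 to 189 CPM, a log2 fold change of 0.56. MGAT1 and MGAT2, which open the path to complex N-glycans, rose by 0.27 and 0.34 on the log2 scale, and MGAT4A fell by 0.28.

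The rises of MGAT4B and MGAT1 were no larger than those of the genes around them. Both lie near the end of the long arm of chromosome 5, where the 50 nearest tested coding genes had a median log2 fold change of 0.635. With this neighbourhood median taken off, MGAT1 came out lower in knockdown (-0.36, edgeR adjusted p = 6.19e-09) and MGAT4B did not pass the test (-0.07, adjusted p = 0.122). B4GALT7 on the same arm (neighbours 0.565) kept a log2 fold change of 0.18 (adjusted p = 0.02). GALNT10, also on chromosome 5 and with a neighbour median of 0.38, kept its fall at -2.93, and MGAT3 its rise at 7.80. Whether the regional values reflect DNA copy number was not tested.

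**Figure D3:**
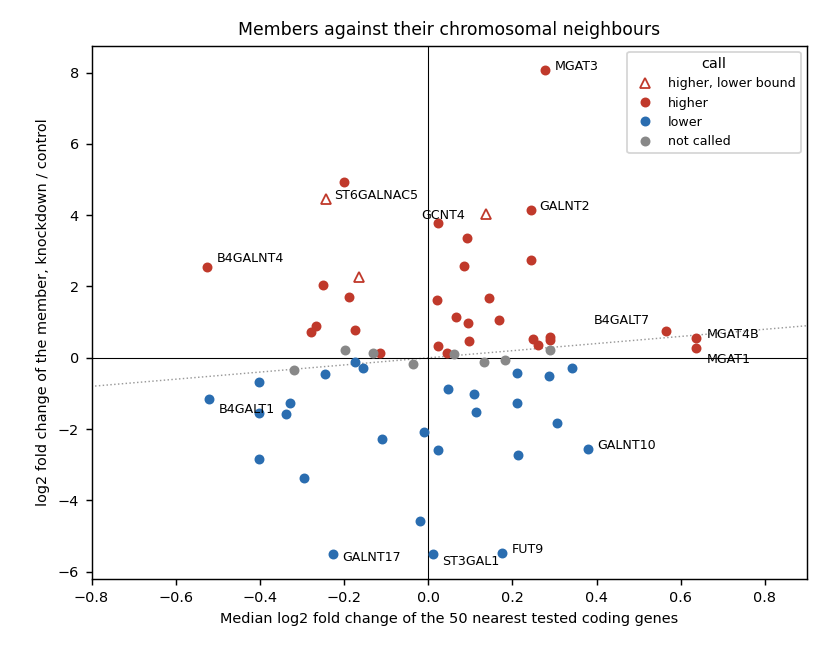
Log2 fold change of each of the 67 tested members (vertical) against the median of its 50 nearest tested coding genes (horizontal), coloured by call, with open triangles for members drawn at a lower bound and a dotted line where both are equal. MGAT1, MGAT4B and B4GALT7 sit close to the line at the right edge, whereas MGAT3, GALNT2, ST3GAL1 and FUT9 lie far from it.

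Lactosamine units, alternating galactose and GlcNAc, lengthen the antennae. Of 12 tested genes 5 fell, 4 rose and 3 did not pass the test. B4GALT1, the main galactosyltransferase of glycoproteins (chr9:33104082-33167356), was at 264.2, 263.3, 275.8 and 260.4 CPM in the controls and at 119.7, 122.0, 114.9 and 125.0 CPM after knockdown. It fell by 1.14 ± 0.0315 on the log2 scale with no overlap (edgeR adjusted p = 7.59e-20). Its 50 neighbours had a median of -0.52, and with that removed the log2 fold change was -0.62. B4GALT1 held 41.4% of the summed CPM per kb of this class in control and 24.4% in knockdown libraries, where B4GALT2, a galactosyltransferase of the same kind, stood first with 28.9%.

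B3GNT3, which extends core 1 and makes ligands for L-selectin, fell from 30.3, 28.2, 29.3 and 28.3 CPM to 8.16, 7.74, 7.33 and 9.53 CPM, 3.54-fold lower. GCNT2, which turns linear lactosamine (the i antigen) into branched lactosamine (the I antigen), fell from 54.1, 54.0, 54.9 and 57.0 CPM to 24.1, 22.6, 20.9 and 23.4 CPM, 2.42-fold lower. Neither gene had overlapping groups. B3GNT2, a main enzyme of lactosamine chain extension, rose by 0.98 on the log2 scale, just under 2-fold, and its share of the class went from 9.11% to 23.4%. B3GNT9 was called higher (1.06, edgeR adjusted p = 0.0077) from 4 to 12 counts in the controls and 12 to 23 counts after knockdown, with overlapping CPM ranges, and DESeq2 did not call it (adjusted p = 0.0628). The rest of the class changed by less: B4GALT2 and B4GALT4 rose by 0.13 and 0.36, B4GALT3 and B3GNT4 fell by 0.29 and 0.87, and B3GALT1, B3GALT9 and B3GNT7 had log2 fold changes between -0.06 and 0.23 and did not pass the test. With the neighbourhood median removed B4GALT4 lost its call (0.10, edgeR adjusted p = 0.165) and B3GALT9 gained one (0.42, adjusted p = 0.0135).

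FOXA1 is a forkhead factor that binds DNA at motifs of the kind TGTTTAC or TGTTTGC, and RefSeq promoter windows (GRCh38.p14, the 250 bases before each start) were searched for these letters on both strands. Windows were found for 62 of the 85 symbols. Of 106 member windows 8 held a match (7.55%), beside 6.09% of all 35116 windows. Stretches of 100 bases around a match are shown for tested members that moved in different directions, with the match in capitals. They read 5′ to 3′ along the gene's strand, and a match written GTAAACA or GCAAACA lies on the opposite strand. The GCNT2 stretches are chr6:10521183-10521282 (plus strand, match 78 bases before its start) and chr6:10585646-10585745 (plus strand, 31 bases before another start). They are labelled first and second among the GCNT2 windows with a match only. The B4GALT3 stretch is chr1:161178059-161178158 (minus strand, 140 bases before a start). That of ST3GAL6 is chr3:98732043-98732142 (plus strand, 169 bases before a start). Other windows of GCNT2, B4GALT3 and ST3GAL6 held no match.
GCNT2, first start: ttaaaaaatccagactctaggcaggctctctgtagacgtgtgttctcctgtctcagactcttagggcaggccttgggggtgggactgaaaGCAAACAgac
GCNT2, second start: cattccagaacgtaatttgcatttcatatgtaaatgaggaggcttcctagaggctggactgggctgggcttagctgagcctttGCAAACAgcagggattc
B4GALT3: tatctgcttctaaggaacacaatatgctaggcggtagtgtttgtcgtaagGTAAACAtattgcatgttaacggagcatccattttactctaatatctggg
ST3GAL6: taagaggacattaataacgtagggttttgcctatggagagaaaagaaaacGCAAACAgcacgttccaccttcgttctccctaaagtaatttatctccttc
GCNT2 and B4GALT3 fell, and ST3GAL6 rose. B4GALT2 and GALNT13, both higher, had a match inside annotated exons. The other tested members with a window, among them GALNT10, held neither string in these 250 bases, which says nothing of sites elsewhere. Binding of FOXA1 was not measured here.

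Glycolipid synthesis held 10 tested entries, of which 5 rose and 5 fell. The falls include both overlapping identifiers of ST6GALNAC6. B4GALT5, the main lactosylceramide synthase and the gene with 86.4% of the class level per length in control, was at 211.3, 222.4, 219.8 and 219.0 CPM in the controls and at 349.0, 363.5, 351.0 and 373.6 CPM after knockdown. It rose by 0.72 ± 0.0279 on the log2 scale with no overlap (edgeR adjusted p = 3.88e-16). B4GALT6, the second lactosylceramide synthase, had 39 to 42 counts in the controls and 3 to 11 counts after knockdown, 6.44-fold lower.

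The ganglioside enzymes moved in both directions. ST3GAL5, which makes GM3 from lactosylceramide (chr2:85837120-85905199), had 6, 12, 7 and 6 counts in the controls and 111, 121, 87 and 116 counts after knockdown, a log2 fold change of 3.77 ± 0.238 (edgeR adjusted p = 5.55e-15). B4GALNT1, which makes GM2 and GD2, had 21, 9, 15 and 17 counts and then 173, 183, 139 and 159 counts, 10.4-fold higher. ST8SIA1, which makes GD3 and lies between these enzymes, moved the other way, from 14 to 23 counts to 6 or 7 counts, a log2 fold change of -1.53. None of the 3 genes had overlapping groups. At these counts they remained below 8 CPM in every library.

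B3GNT5, which starts the lacto-series glycolipids (chr3:183253244-183298504), had 1, 4, 3 and 4 counts in the controls and 95, 97, 78 and 113 counts after knockdown. The ratio was 31.7 with a counting interval of 17.9 to 61.6. ST6GALNAC5, a ganglioside sialyltransferase known from work on breast cancer metastasis to brain (chr1:76867441-77065711), had 1, 2, 0 and 2 counts and then 66, 94, 58 and 64 counts, at least 22.1-fold higher. B3GALT4, which makes GM1, fell by 0.51 on the log2 scale. ST6GALNAC6 fell under its main identifier (ENSG00000160408.14) from 12.4 ± 1.42 to 7.77 ± 1.12 CPM (SD, n = 4). Its other identifier (ENSG00000257524.6) overlaps the whole of the first and AK1 on the same strand. That entry was at 3.81 to 5.39 CPM and 0.278 to 2.66 CPM (log2 fold change -1.54 ± 0.736, edgeR adjusted p = 0.0234). Its call was lost without control replicate 1, 3 or 4 or knockdown replicate 1 (adjusted p from 0.0505 to 0.0637).

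All 3 terminal GalNAc transferases rose, although B4GALNT2 lost its call with the median of its neighbours removed (log2 fold change 0.27, edgeR adjusted p = 0.106). B4GALNT3 and B4GALNT4 make LacdiNAc, a GalNAc-capped unit in place of lactosamine. B4GALNT3 (chr12:460364-563509) was at 3.25, 3.59, 3.61 and 2.63 CPM in the controls and at 19.5, 20.3, 18.6 and 19.6 CPM after knockdown, 5.97-fold higher. B4GALNT4 (chr11:369796-382116) was at 4.03, 3.00, 3.23 and 3.71 CPM and then at 21.3, 20.4, 18.6 and 21.1 CPM, 5.83-fold higher. The genes lie on different chromosomes, and neither had overlapping groups. B4GALNT2, the Sda antigen synthase, rose by 0.52 on the log2 scale from 2.00 ± 0.225 CPM (SD, n = 4), and the summed class level went from 1.63 ± 0.119 to 8.58 ± 0.381 CPM per kb.

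Of the genes for sialic acid caps on glycoproteins, the ones highest in control cells fell. The summed level of the class was 57.6 ± 1.68 CPM per kb in control and 20.7 ± 0.934 CPM per kb in knockdown libraries (SD, n = 4), while of 7 tested genes 4 fell and 3 rose. ST3GAL1, which caps core 1 O-glycans, was at 70.9, 72.9, 69.7 and 69.4 CPM in the controls and at 1.49, 1.27, 1.73 and 1.76 CPM after knockdown. It was 45.3-fold lower, and its log2 fold change of -5.51 ± 0.11 was the lowest of the tested members (edgeR adjusted p = 3.40e-27). GALNT17 (-5.50 ± 0.502) and FUT9 (-5.46 ± 0.343) lay within their standard errors of that value, so the order of these genes is not settled.

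ST6GALNAC4, which adds a further sialic acid to sialylated core 1 (chr9:127907886-127917038), fell from 47.5, 44.5, 48.7 and 43.2 CPM to 6.97, 5.69, 7.13 and 5.88 CPM, 7.17-fold lower. ST3GAL4, which caps lactosamine ends (chr11:126355640-126440344), fell from 121.6, 120.6, 128.1 and 121.2 CPM to 43.2, 38.6, 40.1 and 42.4 CPM, a log2 fold change of -1.58 ± 0.0424. No knockdown library reached a control library for either gene. So C1GALT1, ST3GAL1 and ST6GALNAC4, which act one after another on the same O-glycan, each fell. Not every gene of this route did: ST3GAL2, which also caps core 1, rose, and the chaperone gene C1GALT1C1 did not pass the test.

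ST3GAL6, which like ST3GAL4 caps lactosamine (chr3:98732236-98821201), rose from 3.62, 3.50, 3.61 and 4.22 CPM to 26.9, 23.5, 25.9 and 24.9 CPM, 6.77-fold higher (log2 fold change 2.75 ± 0.0738, edgeR adjusted p = 2.01e-20). ST3GAL2, which caps core 1 and gangliosides, rose from 3.95 to 4.91 CPM to 12.6 to 15.05 CPM, and ST3GAL3 rose by 0.78 on the log2 scale. ST6GAL1, which makes the other linkage of sialic acid to lactosamine, was at 28.2 to 32.8 CPM and at 27.9 to 28.7 CPM, overlapping ranges. Its log2 fold change of -0.12 (edgeR adjusted p = 0.0387) lost its call when any one library other than control replicate 4 was left out (adjusted p from 0.0521 to 0.142). Within the class, ST3GAL4 held 47.8% of the level per length in control and 44.5% in knockdown libraries, ST6GALNAC4 went from 30.3% to 11.8%, and ST3GAL6 reached 19.5%.

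**Figure D4:**
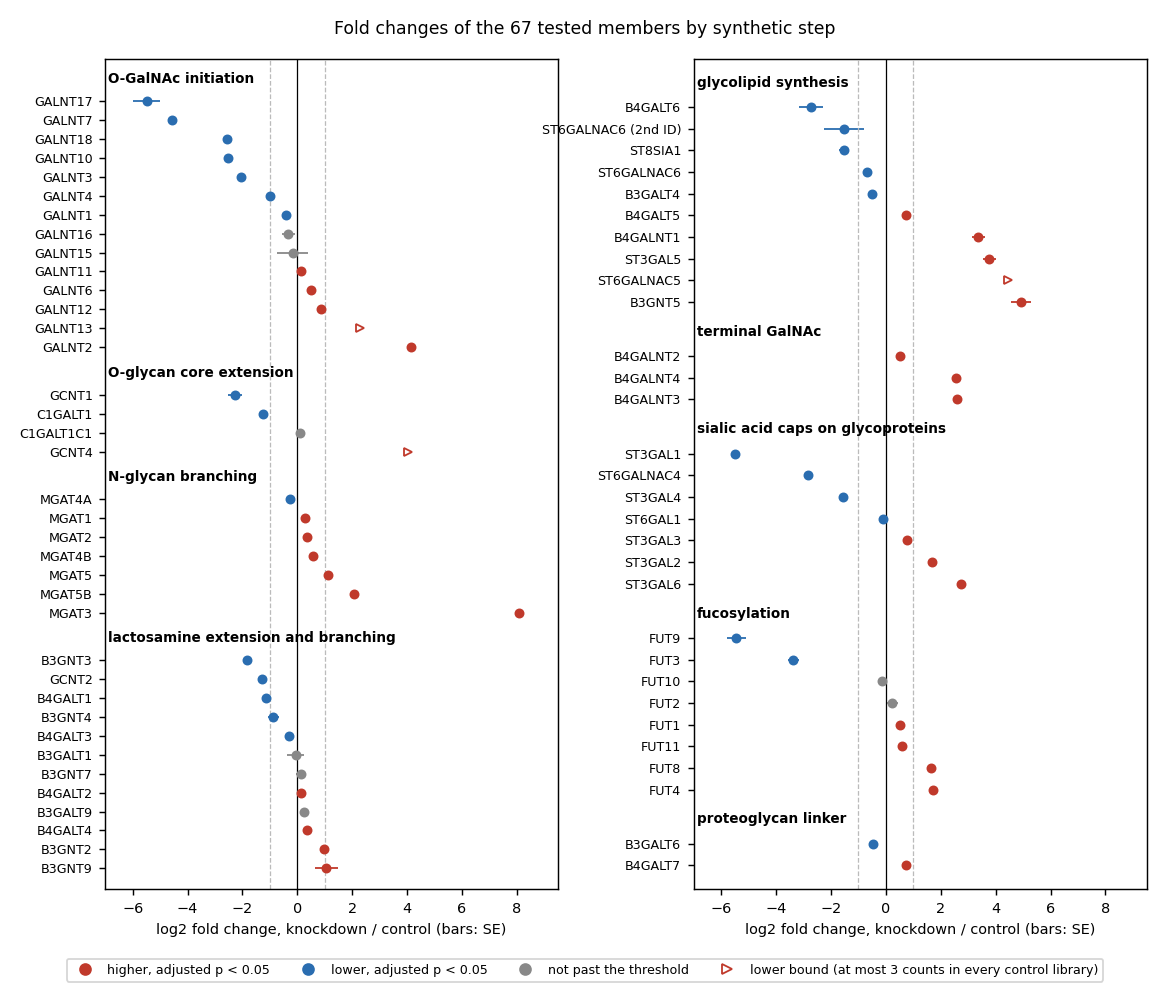
Log2 fold change (knockdown over control) of the 67 tested members by synthetic step, with bars for the standard error and dashed lines at a 2-fold change; open arrowheads mark members with at most 3 counts in every control library, drawn at their lower bound. O-GalNAc initiation, O-glycan core extension, lactosamine extension and branching, glycolipid synthesis, sialic acid caps and fucosylation hold changes beyond 2-fold in both directions. N-glycan branching has 6 of 7 members and terminal GalNAc 3 of 3 to the right of 0, all called higher, beside 39.4% of all genes. With the neighbourhood median removed (not drawn), MGAT1 (-0.36) and MGAT4B (-0.07) change sign and B4GALNT2 loses its call.

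Fucosylation held 8 tested genes, of which 4 rose, 2 fell and 2 did not pass the test. FUT9, which makes the Lewis x antigen (chr6:96015984-96215612), was at 31.7, 27.6, 26.7 and 29.5 CPM in the controls and at 0.425, 0.86, 0.968 and 0.37 CPM after knockdown, 44.0-fold lower (log2 fold change -5.46 ± 0.343, edgeR adjusted p = 1.32e-18). FUT3, the Lewis blood group enzyme (chr19:5842888-5851474), fell from 216 to 248 counts in the controls to 14 to 31 counts, 10.5-fold lower. FUT3 is nearly identical to FUT5 and FUT6, which had at most 7 counts in any library, so the split of reads among them is uncertain. Both falls left the groups well apart.

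FUT4, another Lewis x enzyme, best known from myeloid cells (chr11:94543840-94549898), rose from 10.3, 10.2, 9.74 and 9.48 CPM to 30.8, 33.5, 31.2 and 33.1 CPM, 3.24-fold higher. The span of FUT4 overlaps that of PIWIL4 on the same strand. FUT8, the enzyme of core fucose on N-glycans (chr14:65410592-65744121), rose from 13.1, 13.1, 13.0 and 12.2 CPM to 38.5, 40.5, 39.9 and 40.1 CPM, 3.10-fold higher (edgeR adjusted p = 2.07e-19). Neither had overlapping groups. FUT1, which makes the H antigen, and FUT11 rose by 0.51 and 0.58 on the log2 scale, and FUT2 (0.21, adjusted p = 0.422) and FUT10 (-0.13, adjusted p = 0.142) did not pass the test. FUT10, whose groups did not overlap, was called lower with the neighbourhood median removed (-0.26, adjusted p = 0.00447).

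FUT9 and FUT4 thus moved in opposite directions, and FUT3 fell like FUT9. Per length, FUT9 held 13.0% and FUT4 10.1% of the class in control libraries, and FUT4 held 25.2% after knockdown. FUT3 went first in control with 21.0%, and FUT8 in knockdown libraries with 28.2%. These first places depend on the length used, since with the longest coding transcript FUT11 stood first in both groups with 31.6% and 35.9%. The summed level of the class was 16.2 ± 0.396 CPM per kb in control and 21.0 ± 0.57 CPM per kb in knockdown libraries (SD, n = 4).

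B3GALT6 and B4GALT7 add the galactoses of the linker that joins glycosaminoglycans to proteoglycan cores. B3GALT6 fell from 39.8, 36.7, 40.5 and 37.4 CPM to 27.1, 27.8, 26.2 and 30.8 CPM, a log2 fold change of -0.46 ± 0.0607. The neighbours of B3GALT6 had a median of -0.246, and with that removed its log2 fold change was -0.22. B4GALT7 rose from 13.8 to 15.7 CPM to 22.1 to 27.3 CPM, a log2 fold change of 0.74. The groups did not overlap for either gene.

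The genes that feed and carry these enzymes were described from 6 lists, with 122 of 137 genes tested: 39 rose, 67 fell and 16 did not pass the test, with a median log2 fold change of -0.22 beside 0.019 over all genes. Higher calls made up 32.0% and lower calls 54.9% of the tested list genes, beside 39.4% and 37.7% of all genes. At 2-fold or more 9 were higher (7.38%, beside 14.9%) and 16 lower (13.1%, beside 13.4%). Nucleotide sugar transporters, which bring donors into the Golgi, counted 11 lower (73.3%) and 2 higher (13.3%) of 15. SLC35A1, the carrier of CMP-sialic acid, fell from 57.4 ± 4.16 to 19.3 ± 1.41 CPM, and SLC35C1, the carrier of GDP-fucose, from 39.7 ± 2.04 to 10.8 ± 0.941 CPM (SD, n = 4). The largest rises of this list, SLC35B4 and SLC35A4, were of 0.24 and 0.19 on the log2 scale, beside neighbour medians of 0.18 and 0.17. For the falls of SLC35C1 (-1.88) and SLC35A1 (-1.57) the neighbour medians were -0.51 and 0.19.

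Nucleotide sugar synthesis counted 17 lower (53.1%) and 14 higher (43.8%) of 32, beside 37.7% and 39.4% of all genes. NANS, which makes sialic acid phosphate, fell from 181 ± 4.03 to 43.6 ± 1.88 CPM (log2 fold change -2.05), and UAP1L1, a relative of the UDP-GlcNAc pyrophosphorylase, fell by 2.56 on the log2 scale. GFPT2, an entry enzyme of the hexosamine pathway, rose by 4.10 on the log2 scale from 0.512 CPM. Neighbour medians were -0.2 for NANS, -0.32 for UAP1L1 and 0.61 for GFPT2. NANS, SLC35A1 and ST3GAL4, all on the sialic acid route, were each lower, beside the rises of ST3GAL6, ST3GAL2 and ST3GAL5. NANS and SLC35A1 were named because they were among the largest falls of their lists. Directions of the other sialic acid genes in these lists are not given here, so nothing is said of the route as a whole.

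Golgi mannosidases and lysosomal tagging genes counted 5 lower (55.6%) and 3 higher (33.3%) of 9, beside 37.7% and 39.4% of all genes. MAN1C1 (-1.47) and MAN1A2 (-0.76) fell and MAN1A1 (3.88) and MAN2A1 (0.63) rose on the log2 scale. MAN1A1, MAN1A2 and MAN1C1 are alternative trimming enzymes for N-glycans. Other Golgi transferases counted 15 higher (46.9%) and 13 lower (40.6%) of 32. XYLT1, which starts glycosaminoglycan chains, fell by 2.92 on the log2 scale, while EXTL2 and CHPF, both of glycosaminoglycan synthesis, rose by 2.19 and 0.80. Golgi trafficking and ion balance counted 17 lower (60.7%) and 4 higher (14.3%) of 28. In that list the calcium and manganese pump ATP2C2 fell by 3.06 and the tether subunit COG3 by 1.16, and GOLIM4 and COG8 rose by 0.41 and 0.14. Of 6 tested sialidases and galectins 4 fell (66.7%), among them LGALS8 (-2.94) and LGALS3BP (-0.79), and LGALS1, a lectin that binds lactosamine, rose by 0.44. The largest neighbour medians of the genes in this paragraph, regardless of sign, were 0.62 for LGALS8, -0.58 for GOLIM4, 0.52 for MAN2A1 and -0.49 for COG3. That of COG8 was 0.18. Under the regional correction the 6 lists gave 30 higher and 69 lower.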

How the data were processed

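Expression was measured by paired-end RNA sequencing of 4 control and 4 FOXA1 knockdown libraries of SKBR3 cells, per the labels' protocols. The authors deposited whole-number counts per gene. The submitters' processing notes name hg38, FastQC, Salmon 1.9 and DESeq2 3.16, with no role or order. Whether the counts are rounded estimates, the annotation release and the use of strand are not given in the sources used here. Reads of overlapping genes may be mixed, and the main overlaps on the same strand are stated. If strand was not used, members whose span overlaps a gene on the opposite strand are open to the same mixing. Among them are ST8SIA1 (with CMAS, mean of 1050.6 counts), MGAT4B (SQSTM1, 8636.2) and B3GALT4 (WDR46, 1976.5). B4GALT3 (PPOX), ST3GAL6 (DCBLD2) and B3GNT5 (MCF2L2) are others.

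Groups came from the sample titles. Positions, exon lengths and overlaps come from GENCODE 29 on GRCh38, which held all 86 member identifiers; B3GALT9 is B3GNT10 there. CPM per kb divides CPM by the union of exons. Genes were filtered with filterByExpr (minimum count 10, total 15), which removed 14004 of 30434 and left 16430. Libraries were scaled by TMM and compared by the glmQLFTest of edgeR 4.0.16 in R 4.3.3, after a robust glmQLFit with a prior count of 0.125. P-values were adjusted after Benjamini and Hochberg across the whole tested table, and the threshold was 0.05. The standard error of a log2 fold change comes from the spread of log2 CPM with 0.5 added to each count. Members whose control libraries all had at most 3 counts are given as bounds against 3 counts. At these depths 3 counts are 0.123 to 0.153 CPM, and floors and counting intervals cover counting error only. The fit was tested on simulated data.

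Members are named where they changed at least 2-fold with an adjusted p under 0.05 and no overlap, where 1 group was at the floor and the other had a mean of at least 10 counts, or where they had the highest control CPM per kb of their class. From each pathway list the 2 largest rises and falls with a mean of at least 50 counts are named, though not every such gene is reported here. Members named for other reasons were picked after their values were seen. The members and lists were chosen with earlier results of these data known, and no set of genes was tested as a set.

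Alternatives were other scalings and filters, an adjusted p of 0.01, no robust estimation, DESeq2 1.42.0, limma 3.58.1 (voom), a replicate block, removal of the median change of the 50 nearest tested coding genes, another gene length and leaving out each library. Python 3.11.15, pandas 2.3.3, numpy 2.4.6, scipy 1.17.1 and matplotlib 3.10.9 were used for tables, the exact permutation test and plots.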

Additional observations from a re-analysis of the deposited data

Results flagged for a closer look

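Of 134 groups of 4 libraries checked, 13 had 1 library whose CPM stood apart from the other 3 (by Dixon's criterion of gap over range), where chance gives about 6.7. Among the controls, replicate 3 was low for MGAT4A (109 CPM, the others 121 to 123) and GALNT3 (45.2, the others 50.98 to 52.2) and high for ST3GAL4 (128, the others 121 to 122). Control replicate 4 was low for FUT8 (12.2, the others 13.0 to 13.1) and high for ST3GAL6 (4.22, the others 3.50 to 3.62). FUT1 was low in control replicate 1 (7.51, the others 8.35 to 8.41), and GCNT1 was high in control replicate 2 (4.49, the others 3.66 to 3.80).

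Among the knockdown libraries, replicate 2 was low for GALNT3 (11.5 CPM, the others 12.0 to 12.1) and high for ST6GALNAC5 (3.85, the others 2.81 to 2.96). Knockdown replicate 1 was low for B3GNT4 (0.765, the others 1.20 to 1.27) and for B3GALT4 (5.06, the others 5.18 to 5.20). MGAT5B was high in knockdown replicate 3 (23.8, the others 23.1 to 23.2) and B3GNT5 in knockdown replicate 4 (5.23, the others 3.97 to 4.04). For each of these genes the control and knockdown libraries remained apart.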

How the results depend on the processing

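Over the 67 tested members and 19 alternatives, 1260 comparisons with the reported fold changes gave 1218 with the same direction and call, 27 that lost the call, 5 that gained it and 10 with the other sign. Leaving out each library gave 31 to 32 members higher and 25 to 26 lower, 16 to 18 and 17 to 19 by 2-fold, and a median log2 fold change of 0.10 to 0.16. The sign turned for the uncalled GALNT15 (-0.48 to 0.10) and B3GALT1 (-0.28 to 0.18; 0.02 with library size alone). Removing the regional median moved the members' median from 0.13 to 0.03, gave 28 higher and 27 lower (27 and 25 of them called the same way before), ended the calls of B4GALT4, B4GALNT2, GALNT11 (0.10, adjusted p = 0.0751) and the second ST6GALNAC6 identifier (-1.14, 0.0701), and turned the sign of MGAT1 (-0.36), MGAT4B (-0.07), ST6GAL1 (0.05) and FUT2 (-0.08), since it subtracts the neighbours' shift. With library size alone the median of all genes moved from 0.019 to 0.103. Replicate numbers did not pair the libraries: deviations of libraries with the same number correlated at -0.031 to 0.056, and not every library correlated best with its own number. The replicate block gave 32 higher and 25 lower, without ST6GAL1 (adjusted p = 0.0513) and the second ST6GALNAC6 identifier (0.095), and 12453 calls over all genes against 12675. A minimum mean of 50 counts left 54 members to test. Depth limits what can be said of members under about 10 counts, which include the control levels of MGAT3, B3GNT5, GCNT4, GALNT13 and ST6GALNAC5. Per-length levels of GALNT10 and MGAT4B in control were 31.6 and 22.6 CPM per kb, and 55.6 and 41.0 with the longest coding transcript.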

Other observations

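Among the 19 entries under the filter on low counts, 4 had 0 counts in each control and some after knockdown: ST6GALNAC1, ST6GALNAC3, GALNT8 and FUT5. ST6GALNAC1, which makes the sialyl-Tn antigen, had 0 counts in each control and 1, 6, 3 and 6 counts in the knockdown libraries. ST6GALNAC3 had 0 counts in each control and 1, 1, 2 and 1 counts. GALNT8 and FUT5 each had 2 counts in knockdown replicate 2 and 0 elsewhere. ST6GALNAC1 and ST6GALNAC3 were called higher by edgeR when no filter was applied, but their levels are at or near the limit of 3 counts, and no fold change is given. The number of members with at least 10 counts was 60 or 61 in the control libraries and 61 to 65 in the knockdown libraries.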
